A study of Mus musculus with 19 samples.

Results

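The genes described here are 65 protein-coding genes of the mouse that sit in a pair of gene clusters, 43 on chromosome 2 and 22 on chromosome 4. They were chosen by position and name: a protein-coding gene of GRCm38 that starts in the interval between Edn3 and Zfp971 on chromosome 2 or between Vps13d and Plod1 on chromosome 4, with a symbol that begins with Zfp, Gm or Rex or ends with Rik. The members span chr2:175010241-177957297 and chr4:145510759-147848366, and 5 protein-coding genes inside the chromosome 4 interval (Tnfrsf1b, Tnfrsf8, Miip, Fv1 and Mfn2) have other names and are no members. All 65 identifiers were among the 41388 rows of the count files. Genes of this kind encode C2H2 zinc-finger proteins, and many carry a KRAB domain that binds the corepressor TRIM28 and, through it, a histone H3 lysine 9 methyltransferase. They arose by tandem duplication, so that neighbouring copies can be nearly identical in sequence. In the embryo many such proteins bind and silence retroelements, and a few members of the family guard imprinted loci.

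The study measured polyA RNA in neural tissue of mice heterozygous for Wiz MommeD30, an allele made by ENU mutagenesis, and of Wiz +/+ mice. WIZ is a zinc-finger protein that binds the H3 lysine 9 methyltransferases G9a and GLP. Groups were male whole brain at E13.5 (3 Wiz +/+ and 3 Wiz MommeD30/+), female whole brain at E13.5 (2 and 2), and adult male cerebellum at 56 days after birth (3 and 3). Each of the 16 libraries came from its own animal. All groups were of strain FVB, in a stock kept on a line homozygous for a multicopy GFP transgene, while the reads were aligned to mm10, whose sequence is that of C57BL/6J. Embryos came from crosses between heterozygotes. Each comparison of genotypes asks whether the level of these genes differed in mice that carried 1 Wiz MommeD30 allele. Wiz itself had 172.6, 189.9 and 177.8 CPM (counts per 1000000 of the TMM-scaled library size) in the male Wiz +/+ brains and 111.7, 119.0 and 116.3 in the male Wiz MommeD30/+ brains, a log2 fold change of -0.63 ± 0.041 (SE, edgeR quasi-likelihood test, adjusted p = 1.3e-05). In the cerebellum it fell from 104.9 ± 0.433 to 73.9 ± 0.794 CPM (SD, n = 3 each, a fold of 0.706, edgeR adjusted p = 9.9e-08), and in the female brains from 179.8 ± 5.69 to 120.8 ± 1.23 CPM (n = 2 each, edgeR adjusted p = 0.014). The cerebellar fold was just above the limit of 0.7 used below for a call. By that rule Wiz was not called in the cerebellum, where the study lists it among the lower genes. Total counts ran from 16386029 to 50459755 per library, and the lowest was male Wiz +/+ replicate 2. The summed level of 5 cerebellar markers was 2764 to 2906 CPM in the cerebella and 119.7 to 129.0 CPM in the brains, which is the direction the tissue labels give.

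Sequence sharing between members sets what a count can mean. The count files hold reads of 100 bases assigned to genes, so each member's exons were divided into all windows of 100 bases and each window was looked for on both strands of GRCm38. Windows lay within single exons and matches had to be exact, so the search did not cover reads that cross an exon junction. A window found once has a single origin in that assembly, apart from the 3 members whose exons partly overlap those of another gene on the same strand (Zfp973, Gm14305 and Zfp984). Since the mice were FVB, this search could not show how many copies that strain holds. On chromosome 2 the median member had 0% of its windows found once, and 23 of the 43 members had none. On chromosome 4 the median was 49.9%, and no member was without such a window. In all, 63 of the 65 genes shared a window with another member. The exceptions were Gm16503 and Zfp933.

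Most members carry the repeated zinc-finger unit. The linker between fingers was searched for in the coding sequence of each gene as ACNGGNGANAANCCNTAN, the residues TGEKPY with each codon's last base left free, on the coding strand, and 59 of the 65 members held it, against 426 of 21938 protein-coding genes (1.94%). The median member held 8 copies and the highest 22, and 410 of the 470 gaps between neighbouring copies were 84 bases, the length of 1 finger with its linker. Among 371 other protein-coding genes named Zfp, 245 held the motif. Gm14288, Gm14327, Gm14435, Gm14440, Gm16503 and Gm21411 had no match in coding sequences of 192 to 408 bases. Gm16503, with a coding sequence of 309 bases, is a member by name and position.

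The coding windows below show the range from copied to unique sequence. They were read from RefSeq's copy of the GRCm38 genome, 5′ to 3′ on the coding strand. Gm14418 and Gm14322 have coding sequences of 1074 bases that differ at 2 bases, and 607 of the 807 coding windows of each were identical in the other. In the first pair of sequences, at chr2:177387138-177387237 (minus strand) and chr2:177770359-177770458 (plus strand), the genes are identical, and capitals mark the linker motif.
Gm14418: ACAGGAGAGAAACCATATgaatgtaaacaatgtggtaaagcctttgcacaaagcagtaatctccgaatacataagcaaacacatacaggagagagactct
Gm14322: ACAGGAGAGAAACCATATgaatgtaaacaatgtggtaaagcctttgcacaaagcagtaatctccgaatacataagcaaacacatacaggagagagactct

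The next pair, at chr2:177387224-177387323 (minus strand) and chr2:177770273-177770372 (plus strand), holds 1 of the 2 differences, which is capitalised. Only a read that covers such a base separates their coding sequences.
Gm14418: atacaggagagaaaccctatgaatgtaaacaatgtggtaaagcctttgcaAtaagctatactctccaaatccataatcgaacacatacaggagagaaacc
Gm14322: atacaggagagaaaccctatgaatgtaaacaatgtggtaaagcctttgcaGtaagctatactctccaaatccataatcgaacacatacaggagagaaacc

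A window of Gm4631 at chr2:175325346-175325445 (minus strand) occurred 17 times in the assembled chromosomes. A window of Gm14412 at chr2:177314534-177314633 (minus strand) occurred once, as did a window of Zfp982 at chr4:147512478-147512577 (plus strand) and one of Zfp979 at chr4:147613062-147613161 (minus strand). Capitals again mark the linker.
Gm4631: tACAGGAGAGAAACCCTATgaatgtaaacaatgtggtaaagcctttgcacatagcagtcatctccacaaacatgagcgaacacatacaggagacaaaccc
Gm14412: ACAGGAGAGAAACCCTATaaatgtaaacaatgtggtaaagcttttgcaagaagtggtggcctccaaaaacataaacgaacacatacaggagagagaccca
Zfp982: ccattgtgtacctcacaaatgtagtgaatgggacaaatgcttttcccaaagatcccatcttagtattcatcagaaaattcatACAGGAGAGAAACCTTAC
Zfp979: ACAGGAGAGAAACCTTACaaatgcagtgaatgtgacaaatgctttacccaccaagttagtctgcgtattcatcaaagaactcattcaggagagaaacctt

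The members differed widely in counts. Of the 65 genes, 11 had no count in any library, 18 reached at most 9 counts in their highest library and 36 reached 10 or more. The highest library passed 100 counts for 14 genes, 7 on each chromosome. Per kilobase of exon, the highest mean levels over the 16 libraries on chromosome 2 were those of Gm4631 (10.5 CPM per kilobase), Zfp970 (6.53), Gm14325 (4.35), Gm14326 (1.92) and Gm14401 (1.69). On chromosome 4 they were those of Zfp933 (7.56), Zfp982 (3.64), Zfp992 (2.20), Zfp984 (1.38) and Zfp991 (1.28). Rex2 and Zfp600 stayed at 0 to 6 and 0 to 3 counts per library, and 69.5% of the distinct windows of Rex2 were also in Zfp600. Zfp933 had all of its windows found once, whereas Gm4631 and Gm14391 had none and a median of 11 and 6 genomic copies per window. The 23 chromosome 2 genes without a unique window together held 61.0% of that cluster's counts. How reads with several equally good positions were treated is not given in the sources used here. They may have been left out or counted at 1 of the copies. The level of such a gene may thus miss part of its reads or be that of a group of copies.

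**Figure D1:**
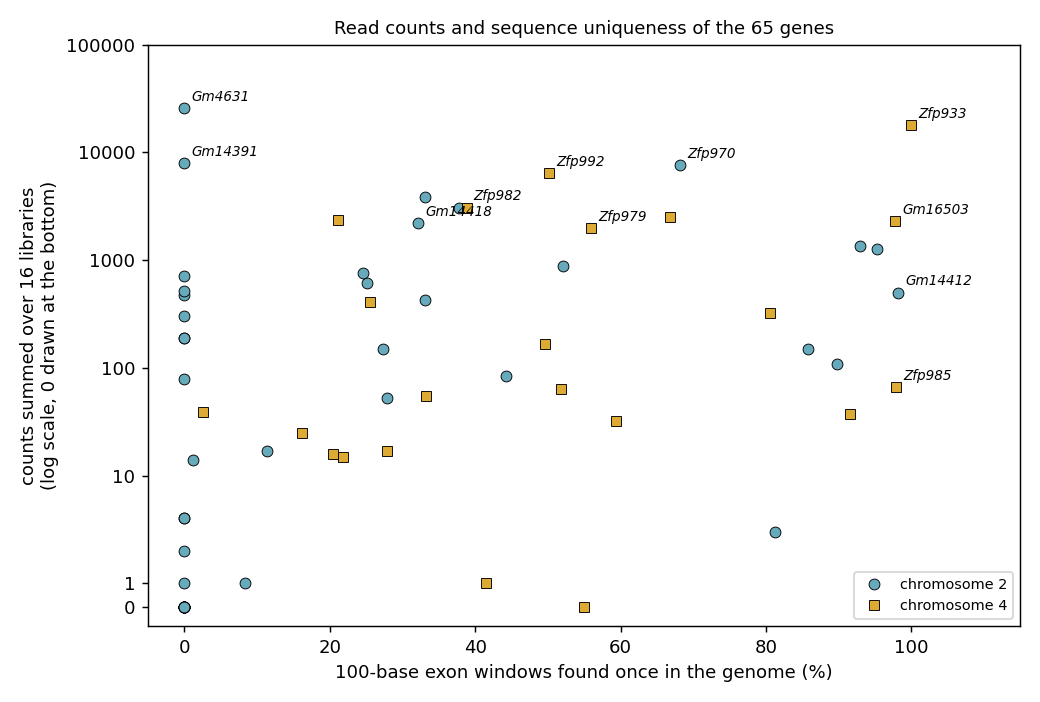
Counts summed over the 16 libraries (log axis, 0 drawn at the bottom) against the percentage of 100-base exon windows found once in GRCm38, 1 point for each of the 65 genes, with circles for chromosome 2 and squares for chromosome 4. Gm4631 and Gm14391 stand at 0% with many counts, while Zfp933 and Gm16503 stand at 100% and 97.7%.

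In the adult cerebellum, a pair of neighbours on chromosome 4, Zfp982 and Gm16503, were higher in Wiz MommeD30/+ than in Wiz +/+ mice. Zfp982 (ENSMUSG00000078496, chr4:147492417-147513486, plus strand) had 5.38, 5.75 and 5.28 CPM in the Wiz +/+ cerebella and 8.08, 7.75 and 7.22 CPM in the Wiz MommeD30/+ cerebella. The groups did not overlap, and the log2 fold change was 0.49 ± 0.094 (SE, edgeR adjusted p = 0.007), a fold of 1.41. Gm16503 (ENSMUSG00000078160, chr4:147540218-147543500, plus strand), the next member along, had 1.73, 1.45 and 1.28 CPM in Wiz +/+ and 2.54, 2.46 and 2.54 CPM in Wiz MommeD30/+ cerebella. Every heterozygote lay above every wildtype, with a log2 fold change of 0.76 ± 0.16 (edgeR adjusted p = 0.0129) and a fold of 1.69. The call of Gm16503 depended on single libraries: its adjusted p was 0.088 without Wiz +/+ replicate 3 and 0.0616 without Wiz MommeD30/+ replicate 1. For Zfp982 the adjusted p over the same 6 omissions ran from 0.00859 to 0.0489. Of the windows of Zfp982, 38.8% were found once, and 46.9% had a copy outside any annotated exon, whereas 97.7% of the windows of Gm16503 were found once.

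These 2 genes made up the calls among the 29 members tested in the cerebellum (8 on chromosome 4 and 21 on chromosome 2). A gene was called when its adjusted p did not exceed 0.05 and its fold lay outside 0.7 to 1.3. Over all 15979 genes tested, 0.832% were called, and 0.532% were called higher. At an unadjusted p under 0.05 there were 4 members (13.8%), all higher in heterozygotes, against 19.9% of all genes and 9.59% in that direction. The groups did not overlap for 5 members (17.2%), all higher, against 24% of all genes and 11.6% in that direction. Levels here are of whole tissue, so that a change in the number of cells of a type and a change in RNA per cell cannot be told apart. In these cerebella, 4 of 5 tested blood markers were also called higher in heterozygotes, the summed level of the 6 markers being 160.0 to 249.1 CPM in Wiz +/+ and 290.5 to 528.0 CPM in Wiz MommeD30/+ libraries, and none was at 0 in every library. The part of this in the results for Zfp982 and Gm16503 was not tested.

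In the brain at E13.5, Zfp982 and Gm16503 had higher values in heterozygous males but did not pass the test. Zfp982 had 4.10, 3.94 and 4.44 CPM in male Wiz +/+ brains and 4.96, 6.01 and 6.06 CPM in male Wiz MommeD30/+ brains, with no overlap and a log2 fold change of 0.44 ± 0.11 (edgeR adjusted p = 0.224). Gm16503 had 4.55, 3.76 and 4.49 CPM against 5.94, 5.69 and 5.39 CPM, again with no overlap, and a log2 fold change of 0.38 ± 0.099 (edgeR adjusted p = 0.249). In female brains the log2 fold changes were 0.12 ± 0.13 for Zfp982 and 0.11 ± 0.19 for Gm16503 (edgeR adjusted p = 0.913 and 0.944). Zfp982 had 4.16 and 4.33 CPM in the female Wiz +/+ and 4.5 and 4.75 CPM in the female Wiz MommeD30/+ brains, without overlap, while the Gm16503 values of 3.45 and 4.99 CPM in heterozygotes enclosed both wildtype values. The genotype by tissue term, which compares the male brain and cerebellum effects, was 0.05 ± 0.14 for Zfp982 and 0.37 ± 0.18 for Gm16503 (edgeR adjusted p = 0.955 and 0.523).

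Of the 22 chromosome 4 members, 10 had enough counts to be tested in the brain and 8 in the cerebellum. Of those tested, none but Zfp982 and Gm16503 passed the test in a comparison of genotypes. Zfp979 (chr4:147611937-147642513, minus strand) had 2.43, 2.55 and 2.81 CPM in male Wiz +/+ brains and 3.88, 3.77 and 3.84 CPM in male Wiz MommeD30/+ brains. The groups were apart, with a log2 fold change of 0.57 ± 0.11 and an edgeR adjusted p of 0.0911. In female brains it had 2.99 and 3.02 against 3.0 and 4.11 CPM, so that 1 heterozygote matched the wildtypes and the other lay above them. In cerebella the groups of Zfp979 were apart as well, at 3.41 to 3.75 against 3.84 to 3.93 CPM, but the log2 fold change was only 0.13 ± 0.12 (edgeR adjusted p = 0.581). Zfp992 (chr4:146449023-146470292, plus strand) had 13, 9.73 and 13.9 CPM in male Wiz +/+ and 16.7, 16.5 and 13.8 CPM in male Wiz MommeD30/+ brains, which overlapped, with a log2 fold change of 0.33 ± 0.11 (edgeR adjusted p = 0.438). Its log2 fold change was -0.04 ± 0.12 in cerebella. Zfp933, the member whose windows were all found once, had log2 fold changes of 0.06 ± 0.060 in male brains, -0.04 ± 0.074 in female brains and -0.05 ± 0.051 in cerebella, and its groups overlapped in each. An approximate 95% interval of its cerebellar difference, 1.96 SE to either side, was -0.15 to 0.05 and did not reach the fitted change of Zfp982 there. The normal approximation makes this interval somewhat narrow for 3 libraries per group. Zfp984 and Zfp991 had log2 fold changes of -0.17 to 0.25 over the 3 comparisons, with adjusted p of 0.431 or more by edgeR.

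**Figure D2:**
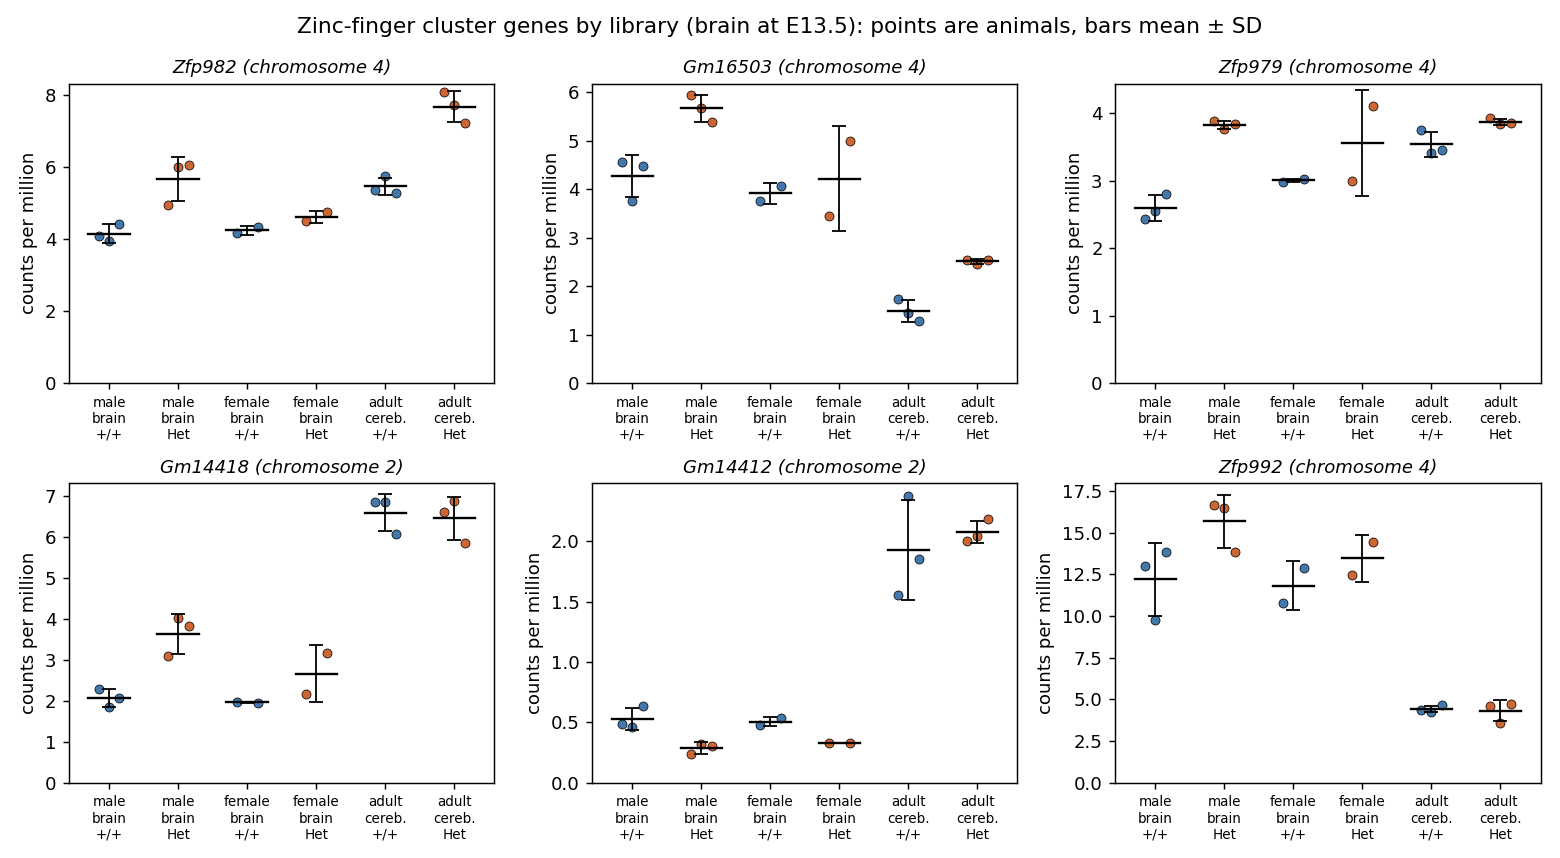
CPM (linear axis from 0) of 6 members in the 16 libraries, with 1 point per animal, blue for Wiz +/+ and orange for Wiz MommeD30/+, and bars for mean ± SD (n = 3, or 2 in female brain). Zfp982 and Gm16503 stand apart by genotype in the cerebellum, Gm14418 is above wildtype in heterozygous brains of both sexes, and Gm14412 is below.

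On chromosome 2 the gene with the smallest p in the male embryonic brain was Gm14418 (ENSMUSG00000078867, chr2:177387124-177398320, minus strand). It had 2.30, 1.85 and 2.07 CPM in male Wiz +/+ brains and 3.09, 4.02 and 3.82 CPM in male Wiz MommeD30/+ brains. The groups did not overlap and the log2 fold change was 0.78 ± 0.14, with an edgeR adjusted p of 0.0588. The study, which used DESeq, had listed Gm14418 as significantly higher in male heterozygous brains, a call that the edgeR fit did not reproduce. In female brains it had 1.97 and 1.95 CPM against 2.18 and 3.16 CPM, which did not overlap, a log2 fold change of 0.44 ± 0.21 (edgeR adjusted p = 0.795). Fitted over the 10 brains with sex as a term, it was called, with a log2 fold change of 0.64 ± 0.13 and a fold of 1.56 (edgeR adjusted p = 0.0476). That fit contains the same male libraries and is no second observation. The call was lost in 9 of the 10 fits that left out 1 brain each, in which the adjusted p ran from 0.0507 to 0.151, and without female Wiz MommeD30/+ replicate 1 the adjusted p was 0.00688. In cerebella Gm14418 had 6.86, 6.86 and 6.07 CPM in Wiz +/+ and 6.62, 6.89 and 5.86 CPM in Wiz MommeD30/+ mice, overlapping, with a log2 fold change of -0.03 ± 0.099. The genotype by tissue term for Gm14418 was -0.80 ± 0.17 (edgeR adjusted p = 0.0668), and it passed without male Wiz MommeD30/+ replicate 1 (adjusted p = 0.0442).

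Its near-copy Gm14322 (chr2:177759288-177770472, plus strand) had 0.809, 0.521 and 0.634 CPM in male Wiz +/+ brains and 1.12, 0.716 and 0.885 CPM in male Wiz MommeD30/+ brains. The groups overlapped, with a log2 fold change of 0.39 ± 0.24, and in females, whose groups did not overlap, the value was 0.52 ± 0.24 (edgeR adjusted p = 0.705 and 0.787). Since the reads of the 2 genes cannot be fully separated, their counts were also summed, a choice made after seeing the data. Reads that fit both genes equally well are in the sum only if they were counted at all. The sum was 2.73 ± 0.366 CPM in male Wiz +/+ and 4.55 ± 0.295 CPM in male Wiz MommeD30/+ brains (SD, n = 3 each), without overlap. Its log2 ratio of 0.74 was close to that of Gm14418 alone, which held most of the sum. In females the log2 ratio of the sum was 0.46 and in cerebella -0.02.

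Gm14412 (chr2:177314520-177324307, minus strand), with 98.2% of its windows found once, was the member with the most negative fitted change in the male brain. It had 0.489, 0.463 and 0.634 CPM in male Wiz +/+ and 0.234, 0.324 and 0.304 CPM in male Wiz MommeD30/+ brains. The groups did not overlap, but these are 8 to 26 counts per library, and the log2 fold change of -0.89 ± 0.28 had an edgeR adjusted p of 0.391. In females it had 0.478 and 0.536 against 0.329 and 0.326 CPM (log2 fold change -0.62 ± 0.31), and over both sexes the adjusted p was 0.121 by edgeR. In the cerebellum, where it was higher, its log2 fold change was 0.11 ± 0.18 and the groups overlapped.

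None of the other chromosome 2 genes tested passed the test in a comparison of genotypes. Gm14391, none of whose windows was unique, had 6.97, 9.20 and 9.03 CPM in Wiz +/+ and 11.1, 10.2 and 10.3 CPM in Wiz MommeD30/+ cerebella, apart but short of the limit (log2 fold change 0.33 ± 0.099, edgeR adjusted p = 0.0634). Without Wiz +/+ replicate 2 it passed, at 0.0369. Gm14325 had 8.70, 9.38 and 9.82 CPM against 11.4, 11.4 and 10.2 CPM in cerebella, also apart, with a log2 fold change of 0.24 ± 0.083 (edgeR adjusted p = 0.0986). Gm4631, the member with the most counts, had log2 fold changes of 0.10 ± 0.061 in male brains, -0.02 ± 0.075 in female brains and 0.08 ± 0.038 in cerebella, and Zfp970 had 0.01 ± 0.097, -0.03 ± 0.11 and -0.11 ± 0.062. Gm14419 had the largest fitted change in the female brain, 1.03 ± 0.46, but on 0.100 and 0.171 against 0.267 and 0.285 CPM, and its value in males was -0.43 ± 0.34 (edgeR adjusted p = 0.787 for both).

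**Figure D3:**
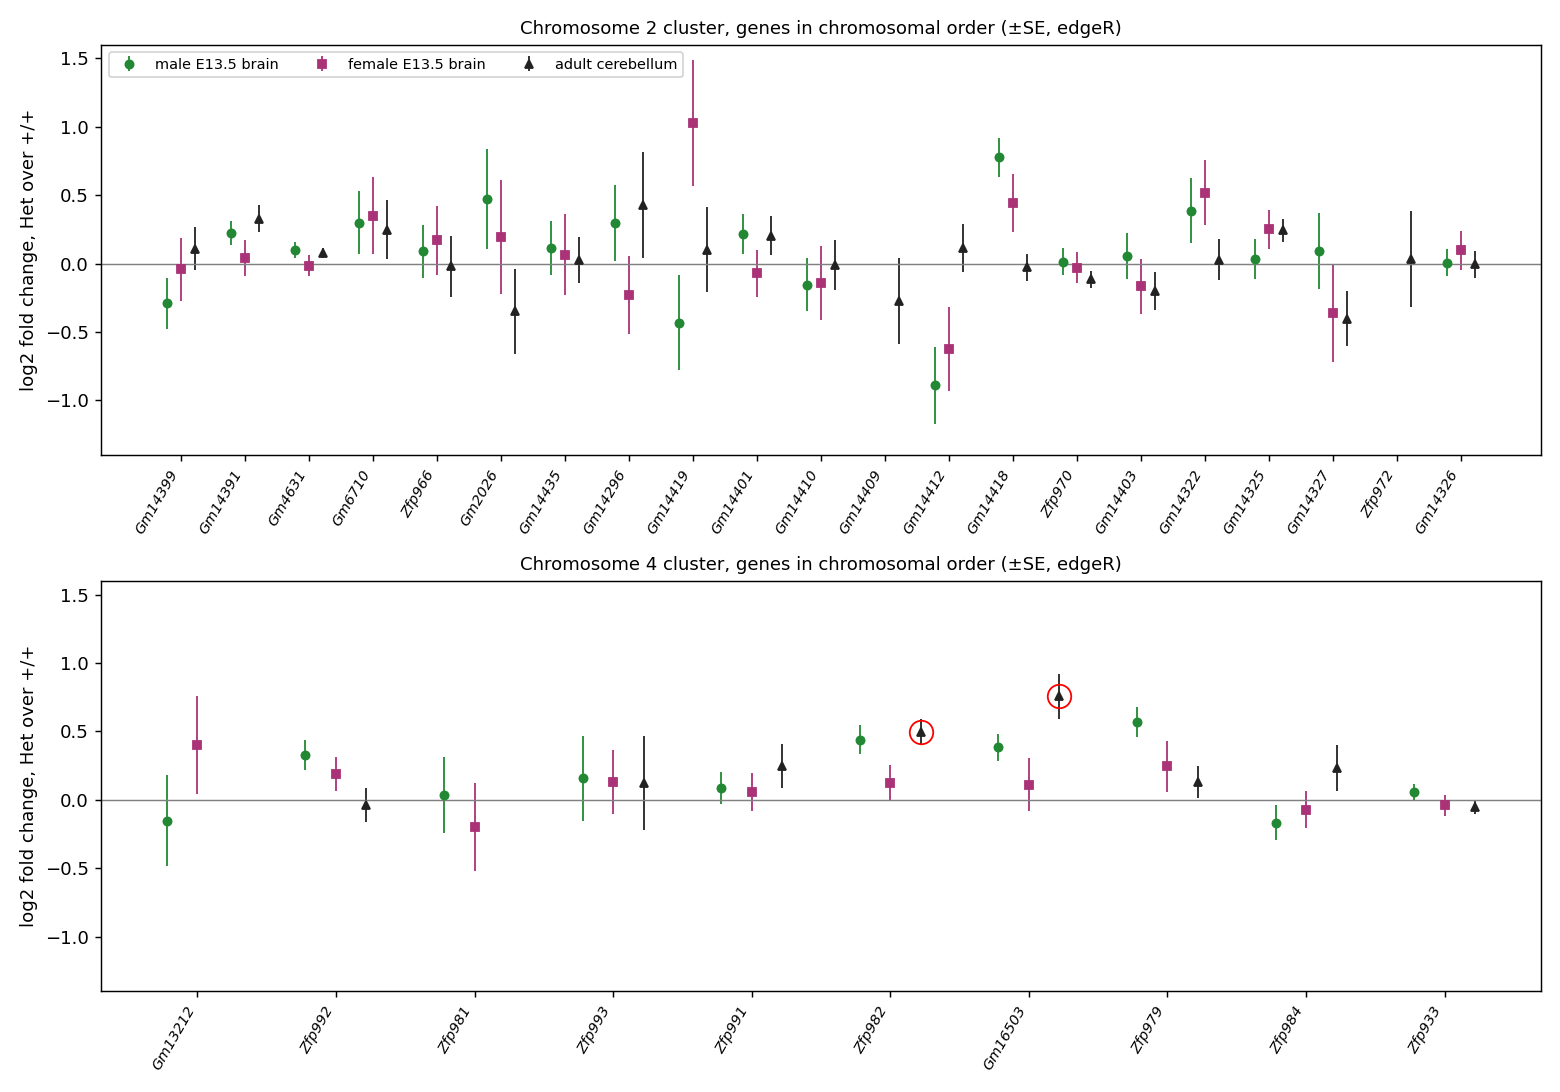
Log2 fold change of Wiz MommeD30/+ over Wiz +/+ with its SE for each tested member, in chromosomal order, for chromosome 2 (top) and chromosome 4 (bottom), with circles for male E13.5 brain, squares for female E13.5 brain and triangles for cerebellum. The 2 circled triangles are the called genes Zfp982 and Gm16503, and Gm14418 and Gm14412 stand farthest from 0 among the male brain values.

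Over the members tested, the male brain gave no call among 29 by edgeR (0.184% of 16848 genes were called), and DESeq2 called 1, Gm14418. At an unadjusted p under 0.05 there were 7 of 29 members (24.1%), 6 of them higher in heterozygotes, against 8.45% of all genes and 3.95% in that direction. The groups did not overlap for 6 members (20.7%), against 12.4% of all genes. In the female brain no member of 29 was called by edgeR or DESeq2 (0.111% of 17152 genes by edgeR) and none had an unadjusted p under 0.05 (6.4% of all genes). There the groups did not overlap for 14 members (48.3%), where the background was 36%. With both sexes 1 of 32 members was called, higher, against 0.346% of 17620 genes (0.0965% higher), and 7 had an unadjusted p under 0.05 (21.9%, against 11.8%). No member had a genotype by sex term past the limit by edgeR or DESeq2, nor had any of the 17620 genes by edgeR (0%), and 1 of 32 (Gm14419) had an unadjusted p under 0.05, against 3.98% of all genes. For the genotype by tissue term, edgeR called none of 31 members (0.26% of 17337 genes), DESeq2 called Gm14418, and 3 had an unadjusted p under 0.05, Gm14418, Gm14412 and Zfp979 (9.72% of all genes).

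Medians over the tested members were small. The median log2 fold change on chromosome 4 was 0.12 in male brains (8 of 10 higher), 0.12 in female brains (7 of 10) and 0.18 in cerebella (6 of 8), while over all genes tested it was close to 0 in each. On chromosome 2 it was 0.09 (15 of 19), 0.04 (10 of 19) and 0.03 (12 of 21). The median SE of a member's log2 fold change was 0.19 on chromosome 2 and 0.11 on chromosome 4 in male brains, against 0.065 for all genes. It was 0.24 and 0.16 in female brains and 0.17 and 0.14 in cerebella. This is the error of a single member and not that of a median over members. Members that share reads are not independent of each other, and these medians carry no test.

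Summed over all 43 genes, the chromosome 2 cluster had 88.2, 74.6 and 87.6 CPM in male Wiz +/+ brains and 94.2, 94.5 and 85.5 CPM in male Wiz MommeD30/+ brains. The ranges overlapped, and the log2 difference of 0.14 was near the SD of 0.11 between libraries of 1 group. The 22 genes of chromosome 4 summed to 63.3, 52.1 and 64.2 CPM against 69.7, 71.1 and 65.9 CPM, which did not overlap, with a log2 difference of 0.21 and an SD of 0.13. Without male Wiz +/+ replicate 2, the library of lowest depth and lowest sum, that difference was 0.11. In female brains the differences were 0.03 and 0.05, and in cerebella 0.05 and 0.06, all with overlap. A few genes set these sums: Gm4631 gave 42.8% of the chromosome 2 sum in male Wiz +/+ brains, and Zfp933 gave 40.9% of the chromosome 4 sum in those brains and 69.4% in Wiz +/+ cerebella. These sums depended on the genes included. Without Zfp933 the chromosome 4 difference in cerebella was 0.29, and over the 11 chromosome 4 members with at least 50% of their windows found once, Zfp933 among them, it was 0.0015. Over the 8 such members on chromosome 2 the difference was -0.0074 in male brains, -0.088 in female brains and -0.069 in cerebella. The male value was near 0, but the SD of 0.11 given above is that of the sum over all 43 genes. The spread of the sum over these 8 was not computed. Most of this sum came from Zfp970, with 7587 counts over the 16 libraries, and the next of the 8, Gm14403, had 1362.

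**Figure D4:**
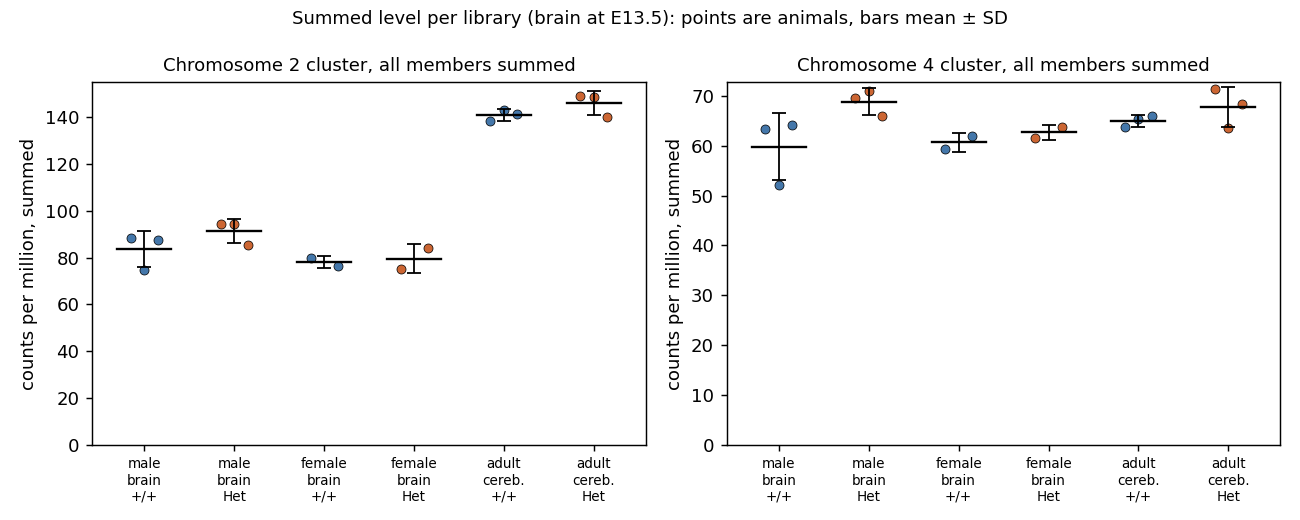
CPM summed over all members of the chromosome 2 cluster (left) and the chromosome 4 cluster (right) in each library (linear axes from 0), with points for animals and bars for mean ± SD. The genotypes overlap in every panel and tissue except chromosome 4 in male brain, and the chromosome 2 sum is higher in cerebellum than in brain.

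Most tested members differed between wildtype adult cerebellum and wildtype E13.5 brain. Between wildtype males, the chromosome 2 sum was 83.5 ± 7.70 CPM in E13.5 brain and 141.0 ± 2.49 CPM in adult cerebellum (SD, n = 3 each), while the chromosome 4 sum was 59.9 ± 6.77 and 65.1 ± 1.22 CPM. Tissue and age differ together here and cannot be told apart. Of 29 members tested, 27 were called, against 69.3% of 16840 genes. Of 21 on chromosome 2, 17 were called higher in cerebellum and 2 lower, against 36.4% and 32.9% of all genes in the respective direction. The filter on low counts passed a gene with enough counts in either tissue, so it selected partly on the level compared. Gm14409, among the 17, and Zfp972 passed the filter in the comparison of cerebella but in neither brain sex on its own. All 43 chromosome 2 members share a window with another member, so these calls are not independent of each other. The largest increases were those of Gm14403 (log2 fold change 1.96 ± 0.16), Gm14327 (1.92 ± 0.25) and Gm14412 (1.84 ± 0.23), with edgeR adjusted p of 1.84e-08, 3.91e-06 and 2.31e-06. Gm14403 went from 1.37, 1.16 and 1.41 CPM in brain to 4.76, 6.38 and 4.68 CPM in cerebellum, without overlap. Gm14418 rose by 1.63 ± 0.12 and Gm14322 by 1.81 ± 0.19 (edgeR adjusted p = 5.51e-09 and 3.43e-07). Gm14391 fell by 0.84 ± 0.11 and Gm14296 by 1.10 ± 0.36 on the log2 scale, the latter with overlapping groups, and Gm14419 and Zfp972 did not pass.

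The chromosome 4 members went both ways. All 8 tested were called, 3 higher and 5 lower in cerebellum. Zfp981 and Gm13212 were tested in the brain but missed the filter on low counts here. Their means were 0.5895 and 0.3317 CPM in male Wiz +/+ brains and 0.1325 and 0.1335 CPM in Wiz +/+ cerebella. Zfp933 rose by 0.86 ± 0.062, Zfp979 by 0.45 ± 0.13 and Zfp982 by 0.38 ± 0.10 on the log2 scale (edgeR adjusted p = 3.11e-09, 0.00402 and 0.00324), and the fold of Zfp982 lay so near the limit of 1.3 that its call was lost without Wiz +/+ cerebellum replicate 2 (0.35) and without Wiz +/+ male brain replicate 1 (0.37) or 2 (0.36). Gm16503 fell by 1.55 ± 0.15, Zfp992 by 1.5 ± 0.12 and Zfp991 by 1.34 ± 0.16 (edgeR adjusted p = 1.32e-07, 1.72e-08 and 1.16e-06). Zfp992 went from 13, 9.73 and 13.9 CPM in brain to 4.37, 4.26 and 4.64 CPM in cerebellum. The neighbours Zfp982 and Gm16503, both called higher in heterozygous cerebella, thus differed between tissues in opposite directions. Median log2 fold changes were 0.82 for chromosome 2 and -1.16 for chromosome 4 members, against -0.02 for all genes and -0.40 for 357 other tested Zfp genes. Non-member protein-coding genes in or within 1 Mb of the chromosome 2 interval also leaned higher in cerebellum, with a median of 0.50. Of 14 tested, 10 were higher, 8 were called higher and 1 was called lower. On the chromosome 4 side 11 of 24 were higher, with a median of -0.12.

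**Figure D5:**
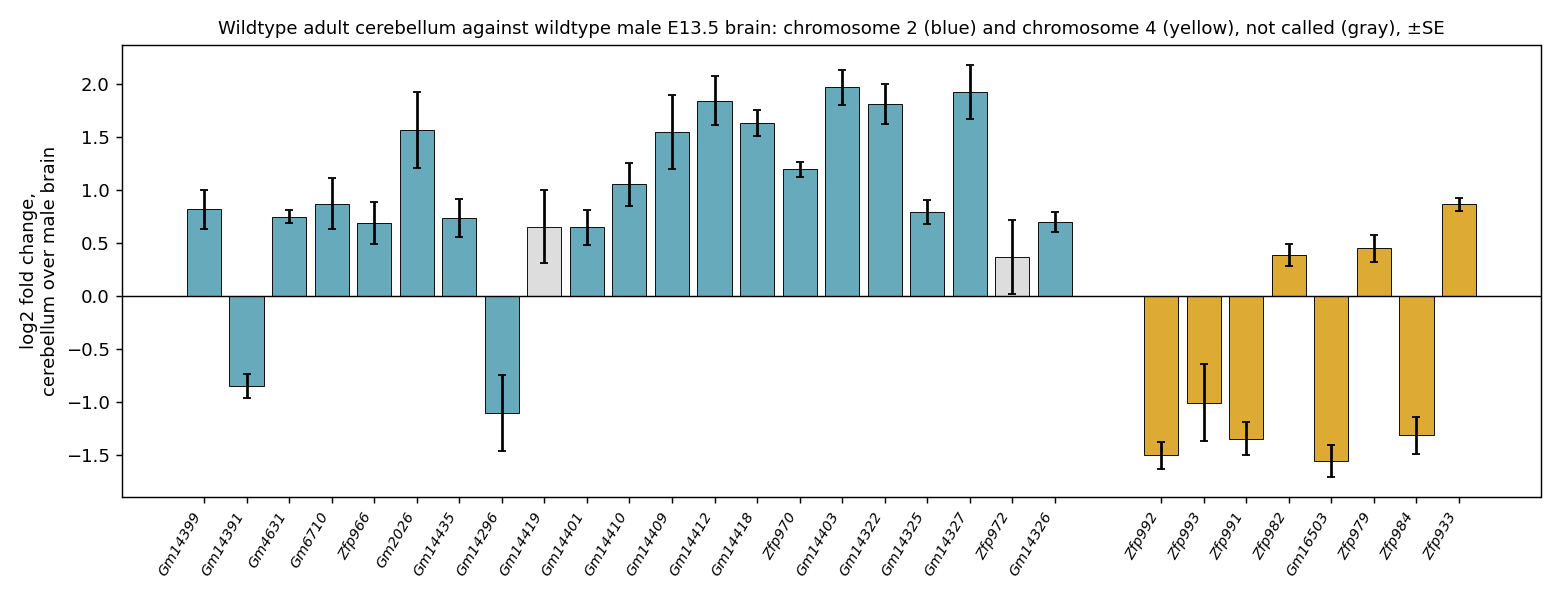
Log2 fold change of Wiz +/+ adult cerebellum over Wiz +/+ male E13.5 brain with its SE, 1 bar per tested member in chromosomal order, blue for chromosome 2, yellow for chromosome 4 and gray where not called. Nearly all chromosome 2 bars point up, with Gm14391 and Gm14296 pointing down, and 5 of the 8 chromosome 4 bars point down.

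Genes that work with such proteins, or lie beside them, were read in the same fits. Of 20 KRAB corepressor genes, the list of TRIM28 and its partners, all were tested and none was called in heterozygotes of either brain sex or of the cerebellum by edgeR, with 2, 2 and 7 of them at an unadjusted p under 0.05 (against 8.45%, 6.4% and 19.9% of all genes in male brain, female brain and cerebellum). Between wildtype tissues 15 of the 20 were called lower in cerebellum (75%, against 32.9% of all genes) and none was called higher (36.4% of all genes), with a median log2 fold change of -1.10 against -0.02 for all genes. Among 12 KRAB zinc-finger genes elsewhere in the genome, 11 were tested and 1 was called in heterozygotes, in the cerebellum (9.09%, against 0.832% of all genes). That gene, Zfp57, which maintains methylation at imprinted loci, had 8.77, 8.75 and 7.35 CPM in Wiz +/+ and 11.7, 9.94 and 11.3 CPM in Wiz MommeD30/+ cerebella, a log2 fold change of 0.41 ± 0.092 (edgeR adjusted p = 0.0158). Its level in the brain was far higher, 260.4 ± 8.02 CPM in male Wiz +/+ embryos, with a log2 fold change of 0.01 ± 0.038 between genotypes. Of 353 other Zfp genes tested in cerebella, Zfp57 was also the single call (0.283%, against 0.832% of all genes). The median log2 fold change of the 353 was 0.02. Of the non-member protein-coding genes in or within 1 Mb of the intervals, 14 on the chromosome 2 side and 24 on the chromosome 4 side were tested in cerebella. Only 1 was called, Edn3, a gene for a secreted endothelin peptide that lies just before the chromosome 2 interval. It was higher in heterozygotes (7.14% of the 14, against 0.832% of all genes). Fitted changes were below 0 for 10 of the 14 and 16 of the 24.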

How the data were processed

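The authors made TruSeq libraries from polyA RNA, sequenced them as 100-base single-end reads, aligned these with TopHat2 2.0.11 to mm10 and counted reads per Ensembl gene with HTSeq 0.6.1; the deposited files hold raw counts per gene and library. The counting mode, strand setting and annotation release are not given in the sources used here, and the kit does not mark strand, so that overlapping genes on opposite strands cannot be told apart. Positions and exon lengths came from GENCODE M21 (GRCm38), which held 40254 of 41388 identifiers. No 2 libraries held identical counts. Members, gene lists and the rule for the genes named were chosen with earlier results of these data known. Named genes were called members, the 5 smallest p per comparison of genotypes, the 5 highest per kilobase in each cluster, the 3 largest tissue differences each way, members the study names, Rex2 and Zfp600.

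Counts were tested over all genes with edgeR 4.0.16 (quasi-likelihood, TMM, filterByExpr with a minimum of 10) in R 4.3.3, with Benjamini-Hochberg adjustment; DESeq2 was version 1.42.0. CPM used TMM sizes over the 16 libraries. Calls are defined in the text (interaction terms used the adjusted p alone). Alternatives were DESeq2 size factors and test, no filter, a mean count of 50, a replicate block, omitted libraries and unique members. Fits were first tested on simulated data. The ChIP samples were not analysed here. P-values measure the spread between the animals of each group.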

Additional observations from a re-analysis of the deposited data

How the results depend on the processing

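Of 314 alternative values for 28 single-gene results, 2 changed direction, both for Gm14418 in cerebellum (-0.03), which had a log2 fold change of 0.00496 without Wiz +/+ replicate 2 and 0.044 without Wiz MommeD30/+ replicate 3, in a range of -0.0837 to 0.044 over single omissions. Another 18 lost and 12 gained a call. In male brain, edgeR without a filter on low counts called 4 members (Zfp979, Gm16503, Zfp982 and Gm14418) and DESeq2 called 1, where the reported fit called 0, and leaving out 1 brain at a time gave 0 to 1. In female brain each alternative run gave 0 members, those without 1 library (0 to 0) leaving a lone sample assumed to vary like the other group, and the adjusted p of Wiz there was 0.056 with the block and 0.313 and 0.424 without either heterozygote. In cerebellum the 2 calls became 1 with DESeq2, which gave Gm16503 no adjusted p, 1 with members of at least 50% unique windows, 1 with members that share no window (an alternative added after seeing the data), and 1 to 3 when 1 library was left out. For both sexes the 1 call became 2 without the filter, 0 with at least 50% unique windows and 0 to 2 when 1 brain was left out. The genotype by tissue term gave 1 member without the filter, 1 with DESeq2 and 0 to 1 when 1 library was left out, and the genotype by sex term 0 to 0. With a mean count of at least 50, fewer members were tested between tissues and 16 were called in place of 27, and 25 to 29 when 1 library was left out. Same-numbered samples did not vary alike (correlations of -0.16 to -0.022), and a fit with the replicate number as a block called 0 members for both sexes together and left the other member counts within 1.5 times.

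For summed levels (log2 of Wiz MommeD30/+ over Wiz +/+), members with at least 50% unique windows gave values below 0 on chromosome 2, where Zfp970 had most of the counts. These were -0.00744, -0.0881 and -0.0692 in male brain, female brain and cerebellum, in place of 0.14, 0.03 and 0.05, the first of them near 0. Such members gave 0.0015 in place of 0.06 on chromosome 4 in cerebellum. On that chromosome the value without Zfp933 was 0.11 in female brain and 0.29 in cerebellum, and the mean log2 CPM over filtered members was 0.23 in cerebellum. Leaving out 1 library gave 0.06 to 0.18, -0.05 to 0.10 and 0.03 to 0.08 on chromosome 2 and 0.11 to 0.26, 0.01 to 0.08 and 0.02 to 0.11 on chromosome 4, in the same order. Over all genes, calls in male brain (31) became 175 without the filter and 20 to 117 without 1 library, in female brain (19) 32 with DESeq2, 3 with the block and 0 to 261 without 1 library, and in cerebellum (133) 211 without the filter, 80 with DESeq2 and 70 to 153 without 1 library. For both sexes (61) they became 101 without the filter. For the sex term (0) they became 1 without the filter, 1 with DESeq2 and up to 13 without 1 library, and for the tissue term (45) 416, 121 and 14 to 103, with 13 under the block. The causes were not tested. The filter on low counts left 32 of the 65 genes tested in any comparison of genotypes, and 11 had no count in any library.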
